A study of Sus scrofa with 70 samples.

Results

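Sex steroid and glucocorticoid signalling genes were examined in the reproductive organs of the boar: the estrogen receptors ESR1 and ESR2, the progesterone receptor PGR, the glucocorticoid receptor NR3C1, the steroid 5-alpha-reductases SRD5A1 and SRD5A2, and the aromatase gene CYP19A1. They were taken by name, and the TPM values (transcript abundance scaled to the same total in every library) of all transcripts that carry each gene name in the merged annotation were summed, which gave 7 genes of 35680 with a value above 0. RNA-seq was made from the testis and epididymis and from 3 accessory glands (vesicular, prostate and bulbourethral) of boars aged 12 months. They belonged to an inbred line of the Banna mini-pig (BMI) or to the Diannan small-ear pig (DSE). There were 3 RNA-seq libraries per breed and gland (30 in all), and 1 PacBio Iso-seq library of full-length cDNA reads was made per breed and gland (10 in all). No treatment was given, and every sample is whole tissue, so fewer cells of a type and less RNA per cell cannot be told apart. Nothing in the labels says which libraries came from the same boar or from separate boars, so p-values measure the spread between these libraries, which may be technical in part. The labels were checked against defining markers: the prostate secretory gene MSMB was at 88607 TPM or more in every prostate library and at most 104 TPM elsewhere, and spermatid markers summed to at least 23338 TPM in testis and at most 935 TPM elsewhere. Epididymis markers (3 of 6 with a value) summed to at least 22.0 TPM in epididymis and at most 14.8 TPM elsewhere, a narrow margin. SEMG1, the marker chosen for vesicular gland, was not found by name among the 35680 genes, so that label was not checked. No marker was chosen for bulbourethral gland.

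Steroid receptors of this family are transcription factors that bind a hormone and then bind DNA at their target genes. Testosterone made by the Leydig cells of the testis is turned into the stronger androgen dihydrotestosterone by the 5-alpha-reductases, or into estrogen by aromatase. The boar testis is known for a high output of estrogens, and the pig carries several near-identical aromatase genes side by side.

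The aromatase copies are shown first because the named gene was almost silent and its neighbour was not. On the Sscrofa11.1 build the 3 copies lie on the plus strand of chromosome 1, and RefSeq calls them CYP19A3, CYP19A1 and CYP19A2 in that order. In the deposited annotation the middle locus alone (chr1:120600536-120627805, ENSSSCG00000053670) carries the name CYP19A1, while ENSSSCG00000030168 (RefSeq CYP19A3) and ENSSSCG00000054479 (RefSeq CYP19A2) carry no gene name and fall outside a sum by name. Exon 2 of the named gene and of CYP19A3, both internal coding exons of 151 bases, are printed below with capitals at the 8 positions at which the 3 copies are not all alike, and CYP19A2 has the same exon 2 sequence as CYP19A3.
CYP19A1 exon 2, chr1:120602727-120602877, plus strand: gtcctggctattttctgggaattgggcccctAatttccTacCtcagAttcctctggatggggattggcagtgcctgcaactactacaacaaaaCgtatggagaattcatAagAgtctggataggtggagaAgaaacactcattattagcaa
CYP19A3 exon 2, chr1:120530787-120530937, plus strand: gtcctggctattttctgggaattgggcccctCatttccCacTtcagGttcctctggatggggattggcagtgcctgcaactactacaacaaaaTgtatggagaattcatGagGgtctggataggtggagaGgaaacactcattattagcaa
Over 888 bases in 5 internal exons of equal length, CYP19A1 and CYP19A3 were identical at 94.4% of positions, CYP19A1 and CYP19A2 at 96.2%, and CYP19A2 and CYP19A3 at 95.3%. Of the 31-base windows in these exons, 34.8% of those in CYP19A1 were also in CYP19A3, and the share of whole reads that any copies have in common was not measured. The levels of the low copies are uncertain for that reason.

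CYP19A1 did not exceed 0.0965 TPM in any testis library, was listed at 0 in all 18 libraries of epididymis, vesicular gland and prostate gland, and reached at most 0.0287 TPM in bulbourethral gland. CYP19A3 stood at 2212, 1990 and 1261 TPM in the BMI testis libraries and at 2006, 6178 and 2586 TPM in the DSE testis libraries (2705 ± 1755, SD, n = 6). Every one of these lay far above the other glands, where CYP19A3 was never above 0.200 TPM. CYP19A2 was at 0.645 to 4.82 TPM in testis, at most 1.18 TPM in epididymis, and listed at 0 in the other glands. All differences below are on the log2(TPM + 1) scale, which understates the change of low genes, and come from limma with Benjamini-Hochberg adjustment over 19911 genes, those that reached 1 TPM in 3 or more libraries. A difference was called at an adjusted p below 0.05 and an absolute log2 fold change of at least 1. CYP19A3 passed this filter through testis alone and was added with its testis level known, so its level there is given as a description, without a test against the other glands.

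Full-length reads put the start of CYP19A3 upstream of the annotated ones. All 2858 Iso-seq reads of this locus were from testis, 1445 in BMI (3176 RPM, full-length reads scaled to the same total in every library, exact Poisson 95% interval 3014 to 3344) and 1413 in DSE (3087 RPM, 2928 to 3252), and fell into 17 isoforms. RPM takes the reads of the isoforms kept after filtering as the total, not all reads sequenced. The intervals of the breeds overlapped, and they cover counting error only, as do all intervals given here. The isoform PB.900.2, with 10 exons, held 2420 reads (84.7%) and began with a 257-base exon at position 120367659, 157553 bases before the first base of the Ensembl transcript ENSSSCT00000044512. The RefSeq gene starts between them, at position 120476890. The 100 bases before each start are shown because they differ in kind.
Before PB.900.2, chr1:120367559-120367658, plus strand: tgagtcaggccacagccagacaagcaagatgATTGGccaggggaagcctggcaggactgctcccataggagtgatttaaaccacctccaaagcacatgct
Before ENSSSCT00000044512, chr1:120525112-120525211, plus strand: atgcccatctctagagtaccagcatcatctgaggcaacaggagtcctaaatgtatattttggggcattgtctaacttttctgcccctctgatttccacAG
Capitals in the first mark CCAAT on the opposite strand, its outermost base 69 bases before the start, and capitals in the second mark the AG at the end of an intron of PB.900.2, whose second exon begins where the Ensembl transcript begins. In the short reads the Ensembl transcript took 2196 TPM of the testis mean (a share of 81.6 ± 2.84%, SD, n = 6), with 350 TPM assigned to PB.900.1 and 132 TPM to PB.900.2. In full-length reads PB.900.2 led, followed by PB.900.23, which matches the Ensembl splice chain (221 reads, 7.73%), and PB.900.1 (113 reads, 3.95%). These transcripts also differ at the 3-prime end. PB.900.2 ends at position 120557844, PB.900.1 at 120556103 and the Ensembl transcript at 120556100. The cause of the different order was not tested.

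**Figure D1:**
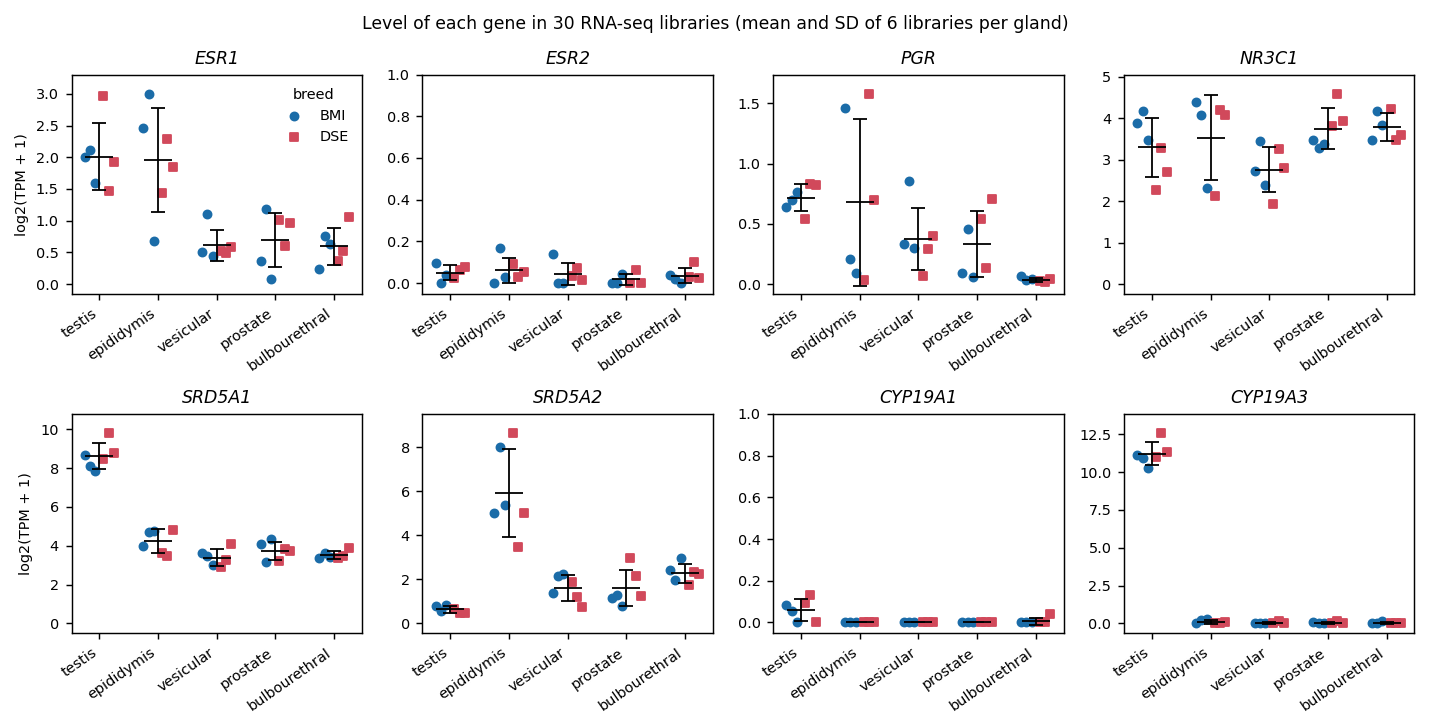
Level of the 7 named genes and of CYP19A3 on the log2(TPM + 1) scale (y axis, a scale of its own in each panel) in the 5 glands (x axis), with circles for BMI and squares for DSE libraries, a bar for the mean and whiskers for the SD of 6 libraries. SRD5A1 and CYP19A3 are separated in testis, SRD5A2 in epididymis with the widest scatter of the panels, and ESR2 and CYP19A1 lie near 0 throughout.

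SRD5A1, the 5-alpha-reductase of broad tissue range, was at its highest in testis. Its testis levels were 411, 277 and 230 TPM in BMI and 352, 901 and 444 TPM in DSE (436 ± 242, SD, n = 6). All 6 exceeded the 24 other libraries, which lay between 6.47 and 27.5 TPM, with means of 19.3 ± 8.02 in epididymis, 12.8 ± 4.47 in prostate gland, 10.5 ± 1.67 in bulbourethral gland and 9.93 ± 3.49 in vesicular gland (SD, n = 6 each). Testis against the mean of the other glands gave a log2 fold change of 4.90 (SE 0.22, limma adjusted p = 1.13e-16). In that contrast 47.3% of all genes tested were called, 34.5% higher and 12.7% lower. Below testis, none of the neighbours in the order epididymis, prostate, bulbourethral and vesicular gland differed past the thresholds, with limma adjusted p of 0.138, 0.745 and 0.809. Because the testis value enters the mean of the others, vesicular gland (-1.63), bulbourethral gland (-1.48) and prostate gland (-1.22) were called too, in contrasts that called 33%, 20.4% and 16.5% of all genes. In vesicular gland the median of all genes was -0.69, which became -0.20 after division by size factors, and SRD5A1 was then at -0.84 and not called. Over the 4 tested members, 8 of 20 contrasts of a gland with the others and 16 of 40 pairs of glands were called. The share of all genes called by pair was 51% for testis and epididymis, 52.9%, 48.8% and 49.1% for testis against vesicular, prostate and bulbourethral gland, and 36.5%, 21.3% and 21.3% for epididymis against the same glands. It was 14.8% for vesicular against prostate gland, 27.8% for vesicular against bulbourethral gland and 7.65% for prostate against bulbourethral gland.

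The SRD5A1 transcript was not the one in the Ensembl annotation. PB.8605.2 (chr16:75309843-75335415, minus strand, 5 exons, 3346 bases) held 105 of the 111 full-length reads of the gene (94.6%) and 98.7 ± 0.221% of its TPM in testis (SD, n = 6). Its exon 4 has 151 bases, against 215 in ENSSSCT00000018621, and the predicted reading frame has 255 amino acids. The stretch between both donor sites is printed because it separates the isoforms, with capitals at the first 2 bases after each end of the exon.
SRD5A1 exon 4 ends, chr16:75317145-75317229, minus strand: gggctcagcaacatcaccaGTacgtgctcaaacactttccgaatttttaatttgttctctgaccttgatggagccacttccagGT
The 64 bases from the first capital pair to the second are in the Ensembl exon and not in PB.8605.2. In a sum over Ensembl transcripts alone, testis minus epididymis fell from 4.38 to 0.83 and was no longer called (limma adjusted p = 0.00608, below the fold threshold), and the calls in vesicular, prostate and bulbourethral gland were lost (-0.34, -0.40 and -0.39). That sum rests on ENSSSCT00000018621, with means of 2.02 TPM in testis and 0.268 to 0.709 TPM in the other glands. PB.8605.2 had a mean of 430 TPM in testis, so the high testis level rests on it. The share of PB.8605.2 was 96.3 to 97.1% on average in the accessory glands. In epididymis it was 83.9 ± 28.3% (SD, n = 6), where DSE replicate 1 stood at 26.5% and the other 5 at 89.9% or more. Testis and epididymis differed by 14.8 percentage points (exact permutation test, two-sided, p = 0.0433, adjusted p = 0.260 over 12 pairs), so the difference was not called, and it was 3.35 points without DSE epididymis replicate 1. That library also had the lowest transcript integrity in the quality control of the study, and the part of this in its share was not tested.

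Leydig cell markers and SRD5A1 were high in the same libraries. The summed level of the Leydig markers INSL3, CYP17A1, STAR, CYP11A1 and LHCGR (5 of 5 in the table) was 18595 to 63514 TPM in testis and at most 4.01 TPM elsewhere. DSE testis replicate 2 had the highest SRD5A1 (901 TPM), CYP19A3 (6178 TPM), Leydig sum (63514 TPM) and Sertoli cell sum (428 TPM, others 140 to 235), and the lowest spermatid sum (23338 TPM, others 67590 to 105087). Whether these proportions account for the spread was not tested. Over the 30 libraries, which share the gland differences, the genes nearest to SRD5A1 were INHA (Pearson r = 0.981), an inhibin subunit, and INSL3 (0.978), the insulin-like hormone of Leydig cells.

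SRD5A2, the reductase known for dihydrotestosterone production in the male tract, was at its highest in epididymis, with very unequal libraries. Its levels were 31.4, 260 and 40.3 TPM in BMI epididymis and 401, 10.01 and 31.8 TPM in DSE epididymis (129 ± 163, SD, median 36.1, n = 6). The lowest of these still exceeded every other library, although highest and lowest differed 40.0-fold. The other glands ranged from 2.37 to 6.85 TPM in bulbourethral gland, 0.732 to 6.86 in prostate gland, 0.663 to 3.74 in vesicular gland and 0.388 to 0.785 in testis. Epididymis exceeded the mean of the other glands by 4.40 (SE 0.45, limma adjusted p = 2.02e-08), in a contrast that called 21.6% of all genes. Testis was lower than the rest (-2.22, SE 0.45, limma adjusted p = 1.11e-04), a mean into which the high epididymis enters. By pair it was below bulbourethral gland (-1.64, limma adjusted p = 0.0140), while its differences from vesicular (-0.97, limma adjusted p = 0.140) and prostate gland (-0.96, limma adjusted p = 0.142) were not called. Vesicular gland passed narrowly (-1.01, limma adjusted p = 0.0475), a call lost on leaving out any of 21 single libraries, with values of -1.09 to -0.83, and at -0.40 after division by size factors. Prostate gland, at the same -1.01, was not called (limma adjusted p = 0.0676), but was on leaving out BMI epididymis replicate 1 (-1.08), DSE epididymis replicate 2 (-1.15) or DSE prostate gland replicate 1 (-1.23). Of the neighbours in the order, epididymis exceeded bulbourethral gland (3.65, limma adjusted p = 1.50e-05), and the remaining neighbours did not differ past the thresholds (0.367, 1 and 0.142).

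The epididymis libraries differed widely in marker genes. The labels name no region of the epididymis, and genes such as GPX5 are known to vary along the duct, so sampled region and tissue makeup cannot be told apart. The epididymis markers in the table, GPX5, LCN6 and RNASE10 (3 of 6), summed to 22.0, 24868 and 78.6 TPM in BMI and 1238, 197 and 29.4 TPM in DSE. The smooth muscle markers MYH11, ACTA2, DES and CNN1 summed to 9223, 1713 and 3655 TPM in BMI and 2637, 14332 and 5404 TPM in DSE. The libraries highest in SRD5A2, DSE replicate 1 and BMI replicate 2, were those highest in epididymis markers, and the lowest, DSE replicate 2, had the most smooth muscle signal. The part of either in the level was not tested. Without the 3 libraries over 5000 TPM of smooth muscle markers, the difference from the other glands was 6.15. Without the 2 libraries over 1000 TPM of epididymis markers it was 3.19. These settings were chosen after seeing the data. They left out the 3 lowest and the 2 highest libraries in SRD5A2. The rise and the fall therefore followed from the choice and are no test of the markers. The within-breed SD of SRD5A2 in epididymis was 2.21 on the log2 scale, above 98.8% of genes tested (median 0.50). The nearest genes over 30 libraries were GP9 (r = 0.938), a platelet glycoprotein, and DEFB116 (0.929), a beta-defensin.

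**Figure D2:**
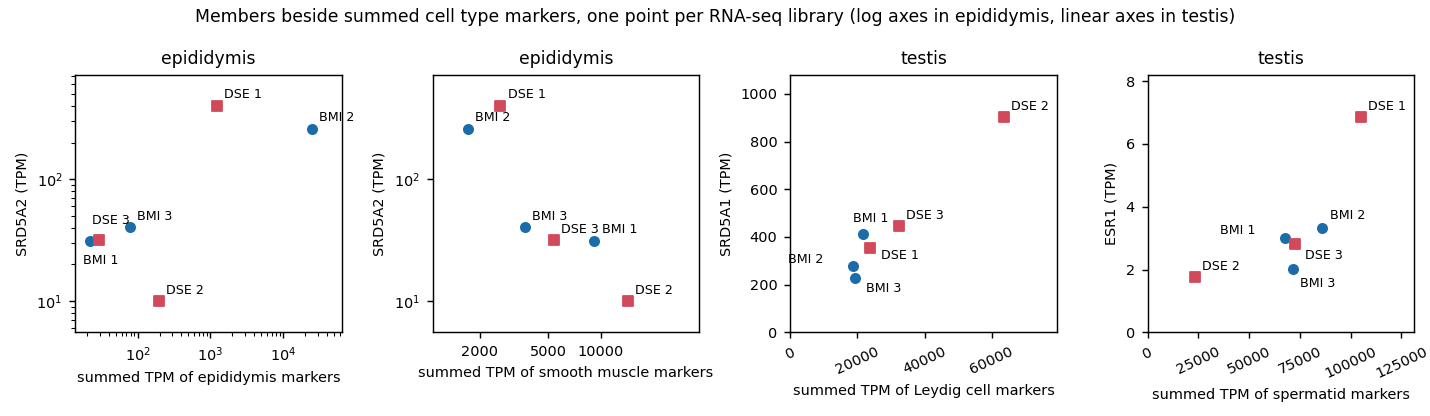
SRD5A2 in the 6 epididymis libraries against the summed TPM of epididymis and of smooth muscle markers (log axes), and SRD5A1 and ESR1 in the 6 testis libraries against Leydig cell and spermatid markers (linear axes), with each point labelled by breed and replicate. DSE 1 and BMI 2 lie at the top in the first panel, and DSE 2 is at 901 TPM of SRD5A1 and 63514 TPM of Leydig markers in the third.

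SRD5A2 had the most isoforms. Iso-seq gave 50 isoforms with 2276 reads, 1961 in BMI epididymis (4275 RPM, exact Poisson 95% interval 4088 to 4469) and 262 in DSE epididymis (1132 RPM, 999 to 1278). The intervals did not overlap, but each is 1 library and the short-read libraries of either breed differed among themselves by more, so no breed difference was read from them. DSE testis had 0 of 457778 reads of kept isoforms. The exact Poisson 95% interval for it reaches 8.06 RPM and the floor of 3 reads is 6.55 RPM. PB.12569.44, which matches the known splice chain, held 1331 reads (58.5%), and PB.12569.39, which skips exon 4, held 385 (16.9%), 305 of them in BMI and 73 in DSE epididymis. The short reads listed PB.12569.39 at 0 TPM in every epididymis library, although it was in the annotation they were assigned to. Nonsense-mediated decay was predicted for 19 isoforms with 169 reads (7.43%). The skipped exon (chr3:107913757-107913907, plus strand) is shown with the 2 intron bases on each side in capitals.
SRD5A2 exon 4, chr3:107913755-107913909, plus strand: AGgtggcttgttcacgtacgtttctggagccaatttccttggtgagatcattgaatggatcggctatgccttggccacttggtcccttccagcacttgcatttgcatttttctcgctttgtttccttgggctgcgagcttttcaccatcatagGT
It has 151 bases, which is not a multiple of 3, and the predicted protein falls from 254 to 208 amino acids without it. In the short reads the main transcript ENSSSCT00000009325 took 67.3 ± 8.50% of SRD5A2 in epididymis and 78.0 ± 4.32% in bulbourethral gland (SD, n = 6 each). The difference of -10.7 percentage points was not called (exact permutation test, two-sided, p = 0.0238, adjusted p = 0.260).

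**Figure D3:**
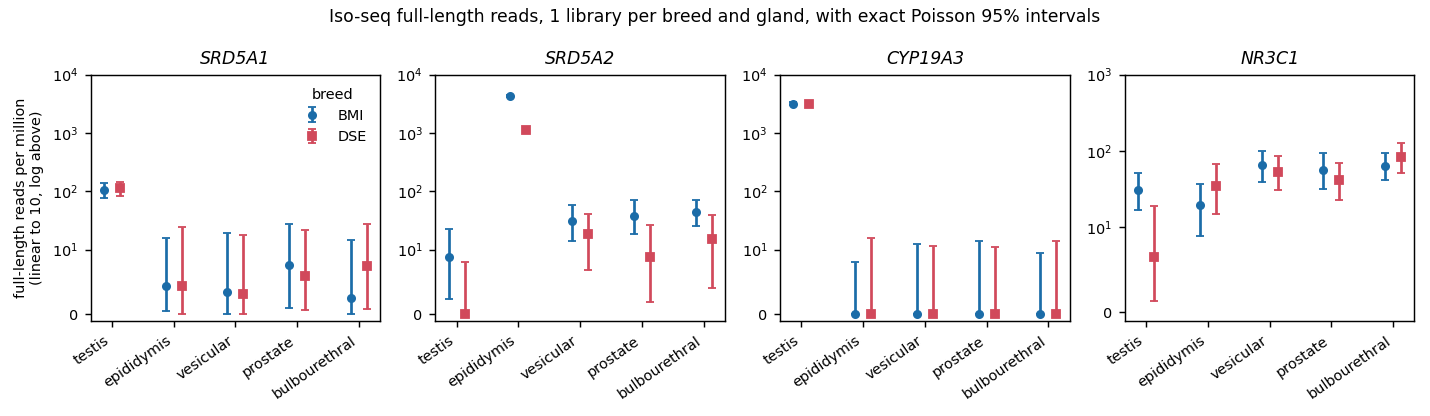
Full-length reads in RPM (y axis, linear to 10 and logarithmic above) of SRD5A1, SRD5A2, CYP19A3 and NR3C1 in the 5 glands (x axis), 1 library per breed, with exact Poisson 95% intervals. CYP19A3 has reads in testis alone, SRD5A1 has 105 and 111 RPM there, SRD5A2 peaks in epididymis, and NR3C1 has reads in all 10 libraries.

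ESR1, the main estrogen receptor of the male tract, was low but higher in testis and epididymis than in the accessory glands. Testis stood at 3.01, 3.31 and 2.03 TPM in BMI and 6.84, 1.75 and 2.80 TPM in DSE (3.29 ± 1.84, SD, n = 6). Epididymis stood at 4.52, 7.03 and 0.609 TPM in BMI and 1.72, 3.89 and 2.61 TPM in DSE (3.40 ± 2.28, SD, n = 6). The accessory glands lay between 0.0535 and 1.28 TPM, below every testis library, while BMI epididymis replicate 3 fell among them. Testis exceeded vesicular, prostate and bulbourethral gland by 1.40, 1.31 and 1.42, and epididymis exceeded them by 1.35, 1.26 and 1.36, all called (limma adjusted p of 2.08e-04 to 0.00170). In a sum over Ensembl transcripts alone the testis differences were 0.68, 0.74 and 0.75 and none was called, while after division by size factors the epididymis calls against vesicular (0.78) and prostate gland (0.93) were lost. Testis and epididymis differed by 0.05 (SE 0.30, limma adjusted p = 0.882), with a sign that turned to -0.63 in a sum over Ensembl transcripts alone, and no difference among the accessory glands was called (limma adjusted p of 0.941 to 1). Against the mean of the other glands, testis was called (1.05, limma adjusted p = 3.95e-04), a call lost without BMI testis replicate 2 (0.995), DSE testis replicate 1 (0.83) or BMI epididymis replicate 3 (0.96), after division by size factors (0.94) and in a sum over Ensembl transcripts alone (0.39). Epididymis was just under the fold threshold (0.98, limma adjusted p = 0.00129) and passed it on leaving out any of 6 single libraries (1.003 to 1.32), the highest value being without BMI epididymis replicate 3.

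In testis much of the ESR1 level came from a short isoform. PB.127.6 (chr1:14218968-14234913, minus strand, 4 exons, predicted non-coding) covers the 3-prime end of the gene, and it was listed at 0 in all 24 libraries of the other glands. Its testis levels were 1.27, 1.86 and 0.871 TPM in BMI and 4.35, 0.658 and 0.965 TPM in DSE, or 46.1 ± 11.3% of the gene (SD, n = 6), and DSE testis replicate 1, the highest in PB.127.6, was also highest in the sum of spermatid markers (105087 TPM), which is mostly PRM1 and TNP1. ACRV1 of the same list went the other way, at 73.3 TPM there and 260 to 402 TPM in the BMI libraries and DSE replicate 3. The main transcript over all libraries, ENSSSCT00000035147, held 26.8 ± 30.1% in testis (n = 6), where 3 libraries listed it at 0, and 56.5 ± 23.2% in epididymis (SD, n = 5). That difference was not called (exact permutation test, two-sided, adjusted p = 0.281). In vesicular gland ENSSSCT00000079800 had the highest mean, at 0.244 TPM (44.8% of the gene) against 0.165 TPM for ENSSSCT00000035147, both too low for a test. Iso-seq gave 12 ESR1 reads in all, 2 of them of PB.127.6, both in DSE testis, so the depth does not settle its share. HHIP, a hedgehog-binding protein (r = 0.885), and ETV5, a transcription factor of spermatogonia and Sertoli cells (0.884), were nearest to ESR1.

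NR3C1, the glucocorticoid receptor, was present in every gland, at 2.85 to 23.2 TPM over the 30 libraries. Means were 13.2 ± 3.45 TPM in bulbourethral gland, 13.1 ± 5.40 in prostate gland, 12.8 ± 7.22 in epididymis, 9.86 ± 5.01 in testis and 6.18 ± 2.62 in vesicular gland (SD, n = 6 each), and the ranges overlapped in every pair of glands but 1. The exception was vesicular gland (2.85 to 9.90 TPM), which lay just under bulbourethral gland (10.04 to 17.6 TPM). None of the neighbours in this order differed past the thresholds (limma adjusted p of 0.181 to 1). Vesicular gland was lower than bulbourethral gland (-1.03, SE 0.35, limma adjusted p = 0.0173), the 1 call for NR3C1. It was lost on leaving out any of 4 single libraries (-0.94 to -0.85), and the difference was -0.28 after division by size factors and -0.78 in a sum over Ensembl transcripts alone, not called in either. The epididymis libraries split, with 3.96 and 3.39 TPM in BMI replicate 3 and DSE replicate 1 against 15.9 to 20.1 TPM in the others. The same libraries were lowest in fibroblast markers (354 and 337 TPM, others 1187 to 6202) and in leukocyte markers (2.15 and 3.54 TPM, others 12.4 to 37.2), and the part of these cells in the split was not tested. STXBP3, a vesicle fusion protein (r = 0.896), and EIF4A2, a translation initiation factor (0.854), were nearest to NR3C1.

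An isoform of NR3C1 with full-length reads in testis alone lacked the long second exon. PB.11413.10 (chr2:144822925-144892021, minus strand, 8 exons) starts at an exon of 184 bases inside the intron after exon 2 of PB.11413.5, and so lacks that exon, of which 1121 of 1214 bases are coding. Its predicted reading frame has 394 amino acids against 755, and the coding end of its first exon is shown with the predicted start codon in capitals.
PB.11413.10 first coding bases, chr2:144891838-144891875, minus strand: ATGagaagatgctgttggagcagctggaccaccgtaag
It had 10 full-length reads, 9 in BMI testis and 1 in DSE testis, and none in the other 8 libraries. In the short reads its testis levels were 7.51, 8.69 and 6.66 TPM in BMI and 2.02, 0 and 0.208 TPM in DSE (37.8 ± 28.3% of the gene, SD, n = 6), so that DSE replicates 2 and 3 held 0% and 3.79% against 50.7 to 65.3% in the other 4. It was listed at 0 in all 6 prostate libraries, and above 0 in 2 of 6 epididymis, 2 of 6 bulbourethral and 1 of 6 vesicular gland libraries, at up to 4.92 TPM, with no full-length read there. In those 5 libraries it made up 36.7 to 60.5% of NR3C1, so the short reads did not place it in testis alone. The epididymis libraries with it are the low ones of the split in NR3C1. By the quality control of the study, the libraries that held this 5-prime shortened isoform had lower transcript integrity, a measure of how evenly reads cover transcripts, than those without it in testis, epididymis, vesicular and bulbourethral gland, whereas in prostate gland a library of low integrity listed it at 0. The part of RNA quality in its share was not tested. ENSSSCT00000049496, the Ensembl transcript nearest in level to the main isoform PB.11413.5, led in mean TPM in epididymis (4.67 against 4.53 TPM, or 36.5 against 35.4% of the gene), a margin far inside its spread over libraries (0 to 8.16 TPM). PB.11413.5 held 16.7 ± 13.2% in testis and 42.8 ± 7.25% in vesicular gland (SD, n = 6 each), a pair that was not tested. No difference in this share was called between bulbourethral gland, the highest in NR3C1, and the other glands (exact permutation test, two-sided, adjusted p of 0.281 to 0.710). The starts of both isoforms are compared below, with capitals at GGGCGG on either strand, the core of the Sp1 binding motif.
Before PB.11413.5, chr2:144929781-144929880, minus strand: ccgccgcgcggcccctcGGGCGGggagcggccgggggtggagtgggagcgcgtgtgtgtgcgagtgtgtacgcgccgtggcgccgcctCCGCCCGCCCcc
Before PB.11413.10, chr2:144892022-144892121, minus strand: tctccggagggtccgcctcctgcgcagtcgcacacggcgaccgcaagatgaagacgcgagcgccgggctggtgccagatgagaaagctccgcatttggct
GGGCGG, searched on both strands, occurred 3 times before PB.11413.5, where matches on the opposite strand overlap, and not in the 100 bases before PB.11413.10. It was held by 29.4% of the 84773 distinct transcript starts of the annotation, TATAAA by 4.84%, CCAAT by 16.3% and AAGGTCA by 1.31%. GC content was 83% before PB.11413.5 and 66% before PB.11413.10, with a median of 59% over all starts.

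**Figure D4:**
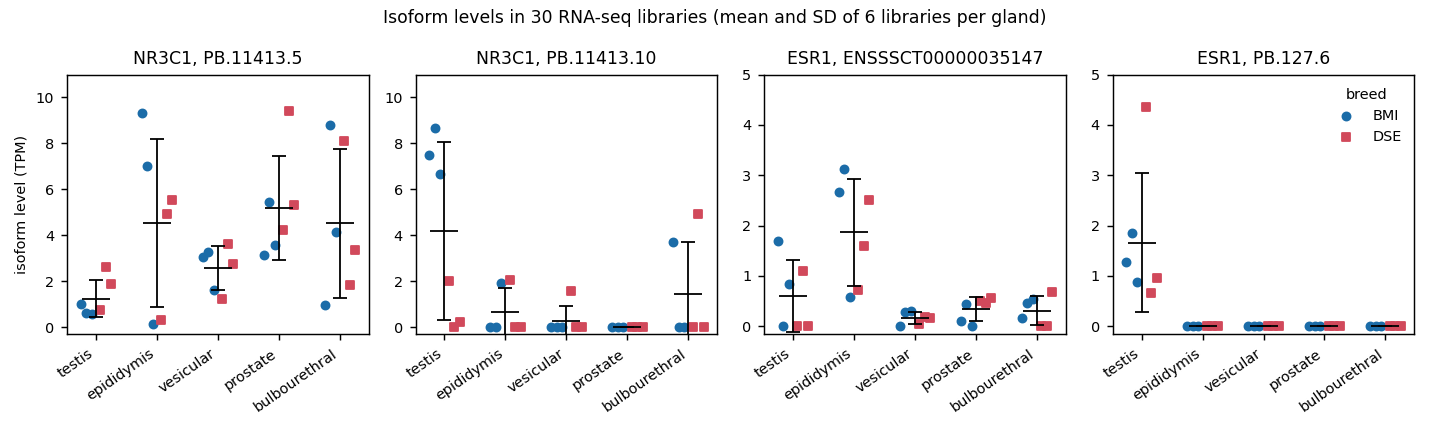
Level in TPM (y axis) of 2 isoforms of NR3C1 and 2 of ESR1 in the 5 glands (x axis), with circles for BMI and squares for DSE libraries, a bar for the mean and whiskers for the SD of 6 libraries. PB.11413.10 is highest in the 3 BMI testis libraries, at 6.66 to 8.69 TPM, and PB.127.6 is above 0 in testis alone.

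**Figure D5:**
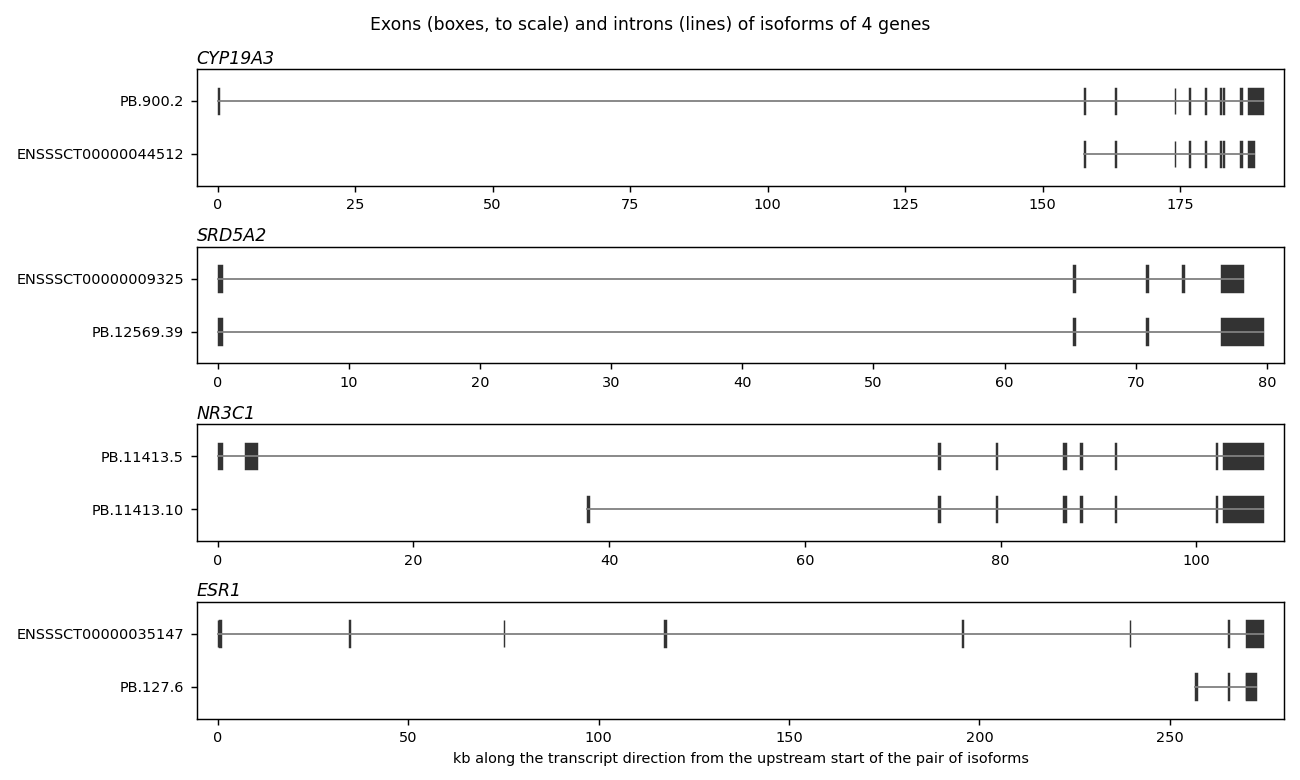
Exons (boxes) and introns (lines), to scale, of isoforms of CYP19A3, SRD5A2, NR3C1 and ESR1, in kb from the upstream start of each pair (x axis). PB.900.2 has an exon 157.6 kb before the Ensembl start, PB.12569.39 lacks exon 4, PB.11413.10 lacks the first 2 exons of PB.11413.5, and PB.127.6 covers the 3-prime end of ESR1.

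PGR and ESR2 were low in every library, and no limit of detection was measured. PGR was even in testis (0.456 to 0.781 TPM) and at most 0.0463 TPM in bulbourethral gland. In epididymis it stood at 1.75, 0.153 and 0.0659 TPM in BMI and 0.0218, 1.99 and 0.623 TPM in DSE, and the libraries at 1.75 and 1.99 TPM, BMI replicate 1 and DSE replicate 2, were those with the most smooth muscle signal. They were also highest in fibroblast (6202 and 2659 TPM), leukocyte (33.9 and 37.2 TPM) and endothelium markers (341 and 150 TPM), so these cell types cannot be told apart here. Its main transcript, ENSSSCT00000016339, led in every gland but bulbourethral gland, where ENSSSCT00000083485 stood at a mean of 0.0175 TPM against 0.00899 TPM. PGR was seen in 10 full-length reads of 1 isoform, 5 of them in BMI epididymis. ESR2 never exceeded 0.125 TPM, and ESR2 and CYP19A1 had 0 full-length reads in all 10 libraries. The reads of all kept isoforms summed to 231413 to 458697 per library, which is not the full sequencing depth. PGR, ESR2 and CYP19A1 did not pass the filter on low values, so their order by gland is given without a test.

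No member was called between the breeds. Among all genes, the share called was 4.77% in testis, 0.703% in epididymis, 0.598% in prostate gland, 0.477% in vesicular gland and 0.296% in bulbourethral gland. Of 20 limma comparisons of a tested member within a gland, 0 were called and 2 had an unadjusted p below 0.05. Both were in testis (NR3C1 and SRD5A1), where 18.1% of all genes had one. NR3C1 did not overlap between breeds in testis (BMI 13.8, 17.1 and 10.2 TPM, DSE 3.82, 8.75 and 5.48 TPM), with a DSE minus BMI difference of -1.10 (SE 0.50, limma adjusted p = 0.236). The short isoform PB.11413.10, whose presence went with lower transcript integrity in testis, was also higher in each BMI testis library than in any DSE one. Its part in the NR3C1 difference was not tested. Of all genes tested, the share whose breeds did not overlap was 31.4% in prostate gland, 22.8% in both testis and vesicular gland, 9.6% in bulbourethral gland and 5.4% in epididymis, so the count of 2 among 20 is not a result about the members. In prostate gland NR3C1 did not overlap in the opposite direction (BMI 8.71 to 10.04 TPM, DSE 13.1 to 23.2 TPM; 0.75, SE 0.50, limma adjusted p = 0.518). SRD5A1 in testis differed by 0.81 (SE 0.39, limma adjusted p = 0.271), which turned to -0.23 in a sum over Ensembl transcripts alone, and CYP19A3 by 0.84 (SE 0.28, limma adjusted p = 0.0685), the latter reaching 1.17 (limma adjusted p = 0.00611) without DSE testis replicate 1. The Leydig marker sum was higher in each DSE testis library (23927 to 63514 TPM) than in any BMI one (18595 to 21823 TPM), but of the 5 markers INSL3 alone separated the breeds (DSE 16566 to 42359 TPM, BMI 11448 to 12257 TPM), and the ranges of CYP17A1, STAR, CYP11A1 and LHCGR overlapped. The part of Leydig cells in these differences was not tested. Over the 5 glands together 0 of 4 tested members were called by limma, 0 at an unadjusted p below 0.05 (0.387% of all genes were called), and no interaction of breed and gland was called (limma F test, unadjusted p of 0.179 to 0.895, adjusted p of 0.510 to 0.951, with 2.94% of all genes called).

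Related genes, grouped in lists chosen with earlier results of these data known, were counted in the testis contrast, where 4 of 7 members had their highest mean on the log2(TPM + 1) scale, and in the epididymis contrast, where 4 of 7 had their highest mean in TPM (2 in testis). In testis the median log2 fold change of all genes tested was 0.31, with 34.5% of them higher and 12.7% lower. Of 13 steroid enzymes that passed the filter on low values, 4 passed through testis alone and so had to differ there: HSD17B3, which makes testosterone, CYP11A1, which starts steroid synthesis from cholesterol, CYP17A1, which makes androgen precursors (3780 to 13936 TPM in testis, at most 0.463 TPM elsewhere), and STAR, which carries cholesterol into mitochondria (1717 to 5143 TPM in testis, at most 0.710 TPM elsewhere). Of the other 9, 2 were higher and 1 lower in testis (median 0.64). Of 6 receptor chaperones, 2 were higher and none lower (median 1.35), namely FKBP4 (2.07), a co-chaperone of steroid receptors, and STIP1 (1.84), which links HSP70 and HSP90. Of 9 coregulators, 2 were higher and none lower (median 0.03): MED1 (1.90), a Mediator subunit, and NCOR1 (1.40), a corepressor. Of 6 related receptors, 2 were higher and 2 lower (median -0.23), including PGRMC1 (1.82), a membrane heme protein, and ESRRA (-1.87), an orphan receptor of energy metabolism. Of 5 glucocorticoid-responsive genes, none was higher and 2 were lower (median -0.78), DUSP1 (-1.79), a phosphatase, and KLF9 (-1.61), a transcription factor. In epididymis 15.1% of all genes were higher and 6.55% lower (median 0.25). Of the same 9 steroid enzymes 1 was higher there and none lower (median 0.22), namely SULT1E1, an estrogen sulfotransferase (4.36). The 4 that passed through testis alone came out lower, since testis enters the mean of the others: CYP17A1 had a fitted difference of -2.92, although its mean of 0.217 TPM in epididymis was above those of the accessory glands (0.0255 to 0.111 TPM). Of the coregulators, NCOA2 was the 1 called (2.12), and of the related receptors ESRRG (-1.64), another orphan receptor, and ESRRA (-1.41) were lower. No receptor chaperone or glucocorticoid-responsive gene was called in epididymis (medians 0.33 and 0.29).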

How the data were processed

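The RNA-seq table holds TPM values that the authors made with Salmon 1.9.0 on reads trimmed and assigned to a merged annotation of Ensembl transcripts and Iso-seq isoforms (Sscrofa11.1), which for the genes reported held no full or incomplete splice matches. TPM keeps no depth. The Iso-seq table holds full-length read counts that the authors deposited per isoform and library after clustering, mapping with GMAP/GSNAP and SQANTI classification. Library totals, and the RPM values and intervals that use them, are sums over these isoforms. They are smaller than the full-length read numbers given in the paper, by a share that differs between libraries. STAR 2.7.10a and Bowtie 1.3.1 are also named in the submitters' processing notes, and the miRNA table was not used here.

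TPM was summed by gene name (gene ID where there was none), and log2(TPM + 1) was fitted with limma 3.58.1 (R 4.3.3, eBayes with trend) on the 10 groups of 3 libraries. Of 35680 genes, 19911 passed at least 1 TPM in at least 3 libraries, and 4 of 7 members did. Shares of the main isoform (highest mean TPM over 30 libraries) were compared by exact permutation tests in libraries with at least 1 TPM of the gene (scipy 1.17.1, Python 3.11.15), and counts by exact Poisson 95% intervals, with a floor of 3 counts. The fits and tests were tested on simulated data first. Genomic sequence is from the RefSeq genome, where 90.8% of Ensembl and 88.1% of Iso-seq introns of the annotation began with GT and ended with AG, so the build is shared. Aromatase copies were matched to RefSeq by position.

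Named with values are the members, isoforms that lead in any gland, the 2 genes nearest to each tested member by Pearson correlation, and the 2 most changed called genes per list in the gland where most members were highest, which is testis by mean log2(TPM + 1) and epididymis by mean TPM (the latter added after values were seen). PB.12569.39, PB.12569.44, PB.900.1, PB.900.2, PB.900.23, HSD17B3 and CYP11A1 were singled out after their values were seen. Members and lists were chosen with earlier results of these data known. The top 10 transcripts took 47.3 to 64.7% of TPM in vesicular gland, 41.4 to 56.2% in prostate gland, 26.4 to 42.5% in bulbourethral gland and 9.24 to 22.0% in the others, which lowers every other gene there. Alternatives were another pseudocount, size factors, no filter, no trend, Ensembl transcripts alone, a replicate block, and leaving out libraries.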

Additional observations from a re-analysis of the deposited data

Results flagged for a closer look

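Of 21 sets of 6 libraries examined for a library far from the rest, 1 stood out. ESR1 in vesicular gland was at 1.15 TPM in BMI replicate 2, while the other 5 libraries lay between 0.365 and 0.497 TPM, so that the gap to the nearest took 0.798 of the whole range, above Dixon's critical value. Chance alone gives about 1 such set in 20. Without this library ESR1 in epididymis passed the fold threshold against the other glands.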

How the results depend on the processing

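Of 20 contrasts of a gland with the others over the tested members, 8 were called, and 4 in a sum over Ensembl transcripts alone, by construction without the Iso-seq isoforms that hold most of SRD5A1. Leaving out 1 library at a time gave 6 to 9 such calls and 15 to 18 of the pairwise calls, and 0 calls by breed, over the glands, for the interaction or for isoform shares. With the breed and replicate number as a block, the gland and pairwise counts were 8 and 16, as without it. For the breed differences and the interaction the block was the replicate number alone, and no call changed there. The labels do not say whether a number marks 1 boar. In glands of a breed, deviations correlated over 0.1 in 20 of 60 same-numbered pairs (mean 0.05). The different-numbered pairs gave 18 of 120 (mean -0.02). Between breeds the counts were 4 of 15 and 10 of 30 pairs (means -0.08 and 0.04). Such pairs were thus more frequent among same-numbered glands within a breed, and not between breeds. Whether same-numbered glands share a boar was not tested, and the main fit did not treat the libraries as paired. Without the epididymis libraries high in smooth muscle markers or in epididymis markers, a choice made after seeing the data, 9 and 7 gland calls and 17 and 16 pairwise calls were made.

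Differences that changed sign were not called as reported, and the cause was not tested. With Ensembl transcripts alone these were, in log2, ESR1 testis minus epididymis (-0.63), ESR1 vesicular minus prostate gland (0.0596), NR3C1 prostate minus bulbourethral gland (0.22), SRD5A1 epididymis against the others (0.0496), prostate minus bulbourethral gland (-0.0079), vesicular minus bulbourethral gland (0.0365) and DSE minus BMI in testis (-0.23), and SRD5A2 vesicular minus prostate gland (-0.0271). With size factors they were ESR1 vesicular minus prostate gland (0.15), NR3C1 epididymis against the others (-0.33), prostate minus bulbourethral gland (0.21) and testis minus vesicular gland (-0.23), and SRD5A1 vesicular minus bulbourethral gland (0.67). SRD5A2 in bulbourethral gland against the others was 0.16 with a pseudocount of 0.1 and 0.14 without the libraries high in epididymis markers, where NR3C1 epididymis minus prostate gland was 0.0019. Without those high in smooth muscle, NR3C1 was 0.0594 in testis and -0.74 in epididymis against the others, and 0.64 for testis minus epididymis.

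With 1 library left out, signs turned within these ranges: ESR1 testis minus epididymis -0.29 to 0.29, vesicular minus prostate gland -0.21 to 0.0691 and vesicular minus bulbourethral gland -0.0894 to 0.12, and NR3C1 epididymis against the others -0.0665 to 0.47, prostate minus bulbourethral gland -0.17 to 0.0668 and epididymis minus prostate gland -0.41 to 0.12. For SRD5A1 vesicular minus bulbourethral gland the range was -0.29 to 0.0043, for SRD5A2 in bulbourethral gland against the others -0.30 to 0.0220, and for SRD5A2 vesicular minus prostate gland -0.22 to 0.22. The share of PB.11413.5 in bulbourethral gland minus epididymis ranged from -1.37 to 7.85 percentage points, and that of ENSSSCT00000009325 in epididymis minus vesicular gland from -7.07 to 0.0052. TPM carries no read counts, and the read totals of the libraries were not used here, so levels below 1 TPM have no counting interval and were given without a test where the filter removed the gene.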
